A study of Mus musculus with 12 samples.

Results

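The 10 genes described here carry pyruvate into the mitochondrion and turn it into acetyl-CoA: the carrier subunits Mpc1 and Mpc2, the pyruvate dehydrogenase complex genes Pdha1, Pdhb, Dlat, Dld and Pdhx, and the regulators Pdk1, Pdk2 and Pdp1. They were taken by name from a table of transcript levels in TPM, which held 33641 gene symbols and 105129 transcripts, and 50 of those transcripts belonged to the 10 genes. Each gene was read as the sum of its transcripts and also transcript by transcript. TPM is a read share corrected for transcript length, and each library sums to 1000000, so a value is a share of the transcripts in that library and not an amount of RNA per cell.

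The mitochondrial pyruvate carrier is a pair of small inner-membrane proteins, MPC1 and MPC2, and each depends on the other for stability. Inside the matrix, the pyruvate dehydrogenase complex removes carbon dioxide from pyruvate with its E1 enzyme (Pdha1 and Pdhb), passes the acetyl group to coenzyme A on its E2 core (Dlat), and re-oxidises the lipoyl arm with E3 (Dld), which Pdhx tethers to the core. Pyruvate dehydrogenase kinases phosphorylate the E1 alpha subunit and switch the complex off, and a phosphatase with the catalytic subunit Pdp1 switches it on again. In the heart this step sets how far glucose and lactate, as opposed to fatty acids, feed the citrate cycle.

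The samples were myocardium from 12 male wild-type C57BL/6 mice of about 16 weeks, 3 in each of 4 groups: sham surgery with vehicle, sham surgery with prednisone, MI (myocardial infarction) surgery with vehicle, and MI surgery with prednisone. Prednisone, a synthetic glucocorticoid, was injected intraperitoneally at 1 mg/kg in 100 ul once a week at lights-on for 6 weeks, beginning 2 weeks after surgery in mice of about 10 weeks, and the myocardium was collected 24 hours after the final dose. Each library came from 1 mouse. The labels do not say which region of the infarcted heart was sampled.

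In all 12 libraries the 10 genes were above 1 TPM, and together they summed to between 1773 and 2306 TPM. Mitochondrially encoded transcripts took between 21.6% and 42.0% of the TPM, and 3 libraries stood lowest: MI vehicle mouse 3 (23.1%) and MI prednisone mice 1 and 2 (24.6% and 21.6%). MI prednisone mouse 3 was at 35.9%, and for 8 of the 10 genes it was the nearest of the 3 treated MI mice to the MI vehicle mean. Summed over 8 genes, cardiomyocyte markers reached 15125 to 18998 TPM in MI vehicle and 19192 to 21018 TPM in MI prednisone hearts, and 20571 to 24293 TPM in sham hearts. The summed level of 8 fibroblast markers was 934 to 1269 TPM in MI vehicle, 343 to 595 TPM in MI prednisone and 392 to 531 TPM in sham hearts, and that of 7 macrophage markers was 607 to 1333, 304 to 554 and 271 to 415 TPM. The summed level of 5 atrial markers was 4358 to 6191 TPM in MI prednisone, 2813 to 4122 TPM in MI vehicle and 855 to 2709 TPM in sham hearts. The atrial and cardiomyocyte sums hide mixed directions. By the tests described below, MI against sham under vehicle moved 2 atrial markers up and 3 down, with a median log2 change of -0.77 and 1 called, higher. With prednisone in MI all 5 atrial markers rose and 3 were called. Of the 8 cardiomyocyte markers 4 rose and 4 fell with prednisone in MI, and 2 were called, both higher. No marker of these lists was at 0 in all libraries. The part of cell makeup, of the mitochondrial share and of the atrial genes in the changes below was not tested, and in bulk tissue fewer cells of a type and less RNA per cell cannot be told apart.

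Mpc1 has 8 listed transcripts and Mpc2 has 5. The 2 most abundant of each gene are 1 longer coding transcript and 1 shorter transcript that starts late in the gene. The result for the carrier turns on which of these is counted. The annotation (GENCODE M21, GRCm38) places Mpc2-201 at chr1:165461037-165481214 and Mpc2-203 at chr1:165478142-165481119, both on the plus strand. Mpc2-203 is annotated as a processed transcript without a coding sequence, and it begins with 78 bases that lie in an intron of Mpc2-201. Its other 415 of 493 bases (84.2%) are shared with Mpc2-201, which has 1025 bases, 515 of them before the join. Mpc1-208 lies at chr17:8283762-8297661 and Mpc1-203 at chr17:8296370-8297449, also on the plus strand. Mpc1-203 is annotated as coding but is outside the consensus coding set (CCDS), and 543 of its 603 bases (90.0%) are shared with Mpc1-208 after 60 bases of its own. A read lying wholly within the shared bases matches both transcripts. The bases around each join are printed 5′ to 3′, with those before the join in lower case and the first shared bases in capitals. The Mpc2-203 stretch covers chr1:165478142-165478235 without a break, that of Mpc2-201 runs from position 165474978 to 165478235, that of Mpc1-203 from 8296414 to 8296549, and that of Mpc1-208 from 8283949 to 8296549, each with the bases between its exons removed.
Mpc2-203: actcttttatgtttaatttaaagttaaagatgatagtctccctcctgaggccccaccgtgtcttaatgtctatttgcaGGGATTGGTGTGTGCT
Mpc2-201: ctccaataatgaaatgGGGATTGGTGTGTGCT
Mpc1-203: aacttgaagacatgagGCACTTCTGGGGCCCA
Mpc1-208: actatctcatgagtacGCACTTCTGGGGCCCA

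Differences between groups were tested with limma on log2(TPM + 1) over 13158 genes at 1 TPM or more in at least 3 libraries, and a gene was called at a Benjamini-Hochberg adjusted p under 0.05. Fold changes on this scale understate the change of low genes. In MI hearts prednisone was followed by calls for 7 of the 10 genes, with Mpc2 higher and Pdha1, Dlat, Dld, Pdhx, Pdk1 and Pdp1 lower. Of all genes tested, 37.4% were called in that comparison, 2.50% higher and 34.9% lower, and the median gene moved by -0.41, so the 6 falls of 10 lie in a table that mostly fell. In MI vehicle mouse 3, 14307 genes reached 1 TPM, against 11690 to 12772 in the other libraries. Without that mouse the median gene moved by -0.22, and 477 of 13158 genes were called higher and 3686 lower. The MI groups did not overlap for 8 of the 10, 2 higher and 6 lower, where 46.2% of all genes did not overlap, 3.59% higher and 42.6% lower. The median over the 10 genes was -0.34. After median-ratio rescaling, which divides each library by the median ratio of its genes to their geometric mean over the libraries, the same comparison called 2 of the 10, Mpc1 and Mpc2, both higher, where 14.6% of all genes were called higher and 14.2% lower; no fall was called, and Pdha1 and Dlat then had changes above 0.

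Between MI and sham hearts under prednisone 7 of the 10 genes were called, all lower: Pdha1, Dlat, Dld, Pdhx, Pdk1, Pdk2 and Pdp1. The values of these 7 did not overlap between the groups, where 45.2% of all genes did not overlap and 32.2% did so with MI lower. The background was 16.8% of genes called and 14.1% called lower, and the median of the 10 was -0.57 against -0.06 for all genes. After median-ratio rescaling 3 of them were still called lower, Dld (-0.65), Pdk1 (-0.68) and Pdp1 (-0.80), beside 14.3% of all genes. This comparison and the preceding one share the MI prednisone mice, so their calls are not independent of each other.

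MI against sham under vehicle called none of the 10 genes in limma, against 16.0% of all genes, and 1 of the 10, Mpc2, had an unadjusted p under 0.05. Of all 13158 genes, 1981 were called higher and 119 lower. That background was unstable, with 120 to 5631 calls over all genes when 1 library was left out. Fitting these 2 groups alone called 2 of 13158 genes. The MI vehicle and sham vehicle mice did not overlap for 5 of the 10, Mpc2, Pdha1, Pdhb, Dld and Pdk2, all lower in MI, while 45.0% of all genes did not overlap and 4.17% did so with MI lower. The median gene rose by 0.39 in this comparison, or by 0.19 without MI vehicle mouse 3, and the median of the 10 was -0.11. After rescaling, all 10 changes were negative, from -0.72 for Mpc2 to -0.28 for Pdk1, and Mpc2 alone was called, beside 3.72% of all genes called lower.

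In sham hearts prednisone against vehicle called none of the 10 genes in limma, where 0.114% of all genes were called, and none had an unadjusted p under 0.05. Their changes lay between -0.034 for Pdp1 and 0.14 for Dlat, with the widest 95% interval for Pdhx, -0.27 to 0.43. The sham groups did not overlap for 3 genes, Pdha1, Dlat and Dld, each higher with prednisone, as 18.2% of all genes did not overlap and 15.6% did so in that direction. The difference of the prednisone effects, that in MI minus that in sham, was called for 6 of the 10 genes: Mpc2 above 0, and Dlat, Dld, Pdhx, Pdk1 and Pdp1 below it, although after rescaling Mpc2 alone was called (1.10, beside 5.12% of all genes above 0) and Dlat turned to 0.11. In that contrast 21.3% of all genes were called, 0.540% above 0 and 20.7% below it, and the median gene was at -0.48. Without MI vehicle mouse 3 the median gene was at -0.29. Leaving out 1 library at a time gave between 3 and 7 calls of 10. The count was 3 without any one of the sham vehicle mice, sham prednisone mouse 1 or 2, MI vehicle mouse 2, or MI prednisone mouse 1 or 2. In those fits the calls over all genes also fell, to between 1111 and 2555 of 13158, beside 2797 with all 12 libraries. The call was lost in 8 of the 12 fits for Mpc2 and in 9 for Dlat and for Pdhx, and Dld, Pdk1 and Pdp1 stayed called in each of these 12 fits.

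**Figure D1:**
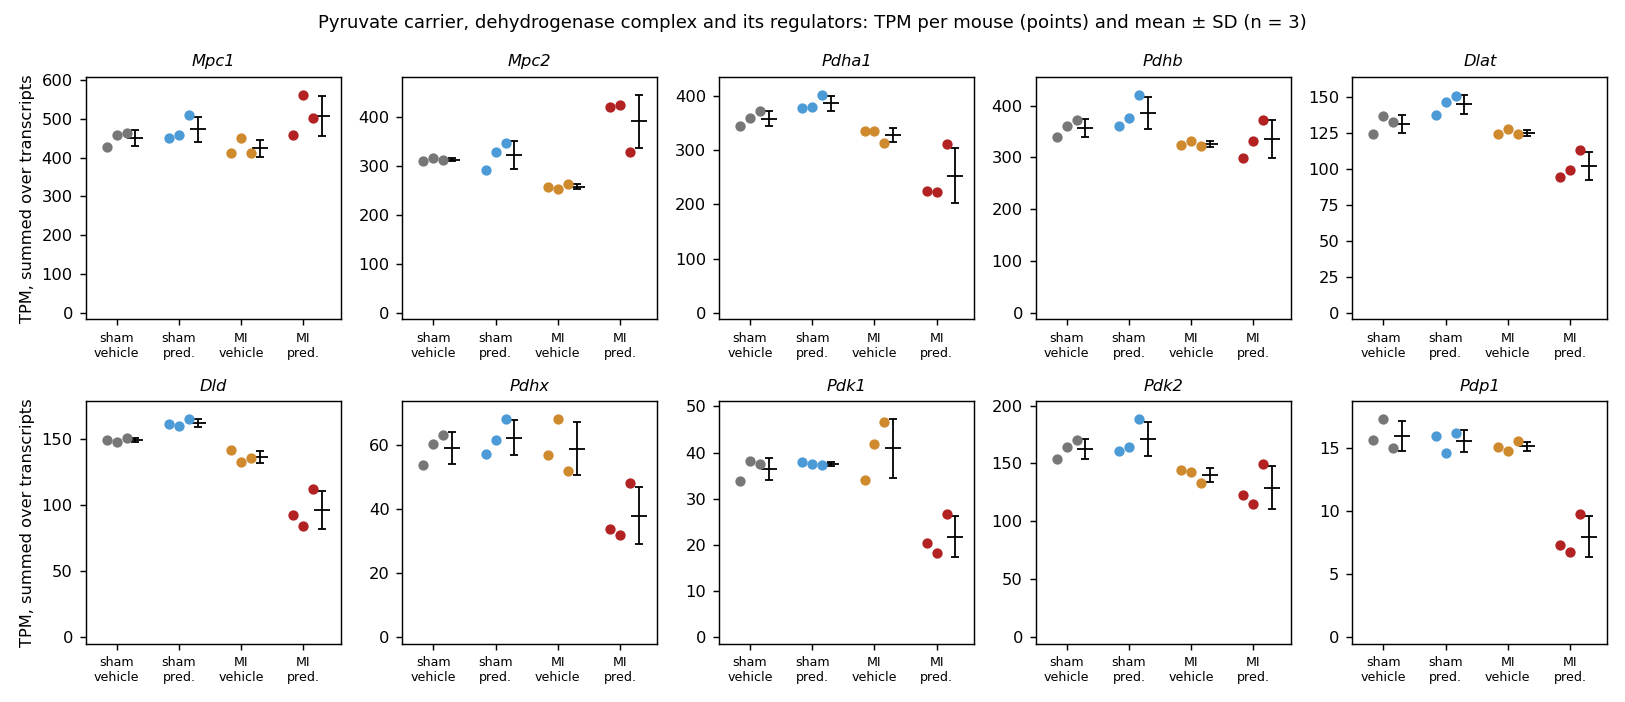
TPM of each gene, summed over its transcripts, in each mouse (points) of the 4 groups on the x axis, with the mean and SD of 3 mice beside them and each panel on its own axis from 0. Pdha1, Dlat, Dld, Pdhx, Pdk1 and Pdp1 sit lower in the MI prednisone mice than in the MI vehicle mice, Mpc2 sits higher, and MI prednisone mouse 3, the third red point, is the nearest of the 3 to the MI vehicle mean for 8 of the 10 genes.

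**Figure D2:**
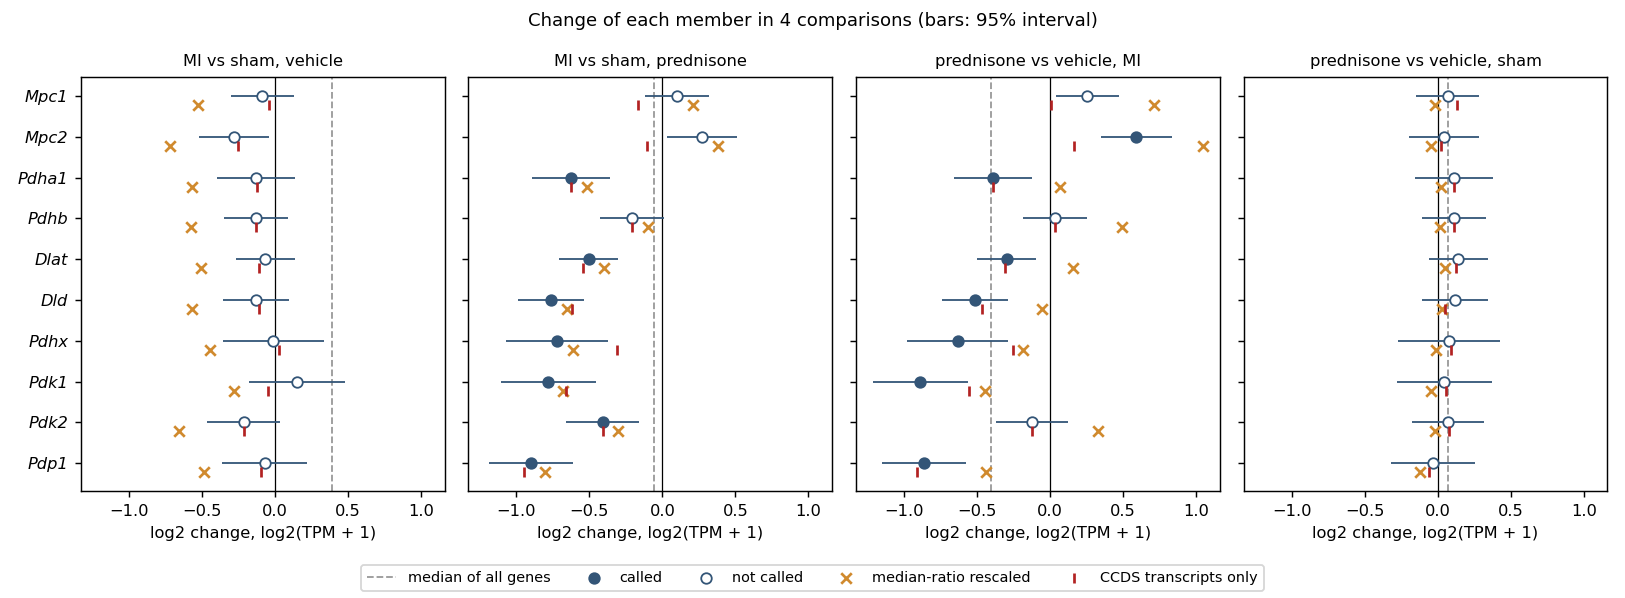
Log2 change of each gene on the log2(TPM + 1) scale in 4 comparisons, with circles for the sum over transcripts (filled where called), bars for the 95% interval, crosses for median-ratio rescaled values and red ticks for CCDS transcripts only. The dashed line is the median of all genes, which lies at -0.41 for prednisone in MI, and the red ticks of Mpc1 and Mpc2 lie at 0.0066 and 0.16 there.

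The carrier subunits had the 2 largest positive changes of the 10 genes with prednisone in MI hearts. Mpc2 (gene at chr1:165460637-165481214), which with Mpc1 forms the carrier, was at 309, 316 and 312 TPM in the sham vehicle mice and 292, 328 and 347 TPM in the sham prednisone mice. Mpc2 in MI hearts was at 256, 254 and 263 TPM with vehicle and 419.8, 424 and 328 TPM with prednisone. The 3 treated MI values lay above all 3 MI vehicle values, and mouse 3 lay within the range of the sham prednisone mice. Mpc2 rose by 0.59 (SE 0.11, adjusted p = 0.00303) in limma, and by 1.05 after rescaling and 0.73 after correction for length. When the 6 MI libraries alone were fitted the change had an adjusted p of 0.0564, which does not pass.

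Much of that rise was in the short transcript, whose mean was 19.3 ± 10.7 TPM (SD, n = 3) in MI vehicle and 124 ± 50.4 TPM in MI prednisone hearts, beside 257 ± 4.91 TPM and 391 ± 54.3 TPM for the gene. Mpc2-203 was at 49.8, 8.92 and 25.6 TPM in the sham vehicle mice and 18.8, 53.3 and 29.9 TPM in the sham prednisone mice. Mpc2-203 in MI hearts was at 8.14, 20.3 and 29.5 TPM with vehicle and 164, 139 and 67.2 TPM with prednisone. Its values were high in MI prednisone mice 1 and 2, and mouse 3 at 67.2 TPM lay above the highest of the other 9 libraries, 53.3 TPM. It rose by 2.69 (SE 0.63, adjusted p = 0.00847) in limma over 27769 transcripts. Against sham prednisone the change was 1.86 (SE 0.63, adjusted p = 0.0544), and the difference of the prednisone effects was 2.25 (SE 0.88, adjusted p = 0.0966), neither of which passed. Mpc2-203 made up 39.2, 32.8 and 20.5% of the Mpc2 sum in the MI prednisone mice and between 2.83% and 16.2% in the others. The full-length Mpc2-201 was at 258, 305 and 284 TPM in the sham vehicle mice and 271, 273 and 316 TPM in the sham prednisone mice. Mpc2-201 in MI hearts was at 247, 232 and 232 TPM with vehicle and 254, 284 and 259 TPM with prednisone. It was above every MI vehicle value in the 3 treated MI mice, yet within the range of the sham mice in 2 of them, and its change was 0.16 (SE 0.10, adjusted p = 0.230), which did not pass. Counting CCDS transcripts alone, the Mpc2 change was 0.16 with a 95% interval of -0.051 to 0.38.

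Mpc1 (chr17:8282904-8297661, plus strand), the partner subunit and the highest of the 10 genes, was at 427, 459 and 464 TPM in the sham vehicle mice and 449.6, 458 and 509.6 TPM in the sham prednisone mice. Mpc1 in MI hearts was at 411, 449.6 and 411 TPM with vehicle and 458, 562 and 501 TPM with prednisone. The MI prednisone mice lay above the MI vehicle mice, with mice 1 and 3 within the range of the sham prednisone mice, and the change of 0.25 (SE 0.099, adjusted p = 0.0619) did not pass in limma. It passed after rescaling, at 0.71, and not after the length correction, at 0.38. As for Mpc2, the short transcript was the one that moved. Mpc1-203 was at 90.8, 114 and 101 TPM in the sham vehicle mice and 91.7, 71.5 and 125 TPM in the sham prednisone mice. Mpc1-203 in MI hearts was at 77.3, 90.3 and 100.3 TPM with vehicle and 128, 226 and 162 TPM with prednisone. The treated MI mice lay above the other 9, whose highest value was 125 TPM in a sham prednisone mouse. The Mpc1-203 rise was 0.91 (SE 0.23, adjusted p = 0.0125) against MI vehicle and 0.83 (SE 0.23, adjusted p = 0.0244) against sham prednisone. Its share of the Mpc1 sum was 27.9, 40.3 and 32.3% in the MI prednisone mice and 15.6% to 24.8% in the other 9.

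The CCDS transcript Mpc1-208 showed no such rise. It was at 321, 323 and 348 TPM in the sham vehicle mice and 345, 371 and 370.4 TPM in the sham prednisone mice. Mpc1-208 in MI hearts was at 321, 341 and 302 TPM with vehicle and 319, 319.9 and 328 TPM with prednisone. The MI prednisone values lay inside the MI vehicle range, and the change was 0.0066 (SE 0.085, adjusted p = 0.960) with a 95% interval of -0.18 to 0.19. Against sham prednisone mice the 3 treated MI values were all lower, with a change of -0.17 (SE 0.085, adjusted p = 0.186), which did not pass. Relative to the other transcripts of their genes, Mpc1-208 and Mpc2-201 were called lower (-0.80 and -2.44) and Mpc1-203 and Mpc2-203 higher (0.90 and 2.52) in MI hearts with prednisone. As these transcripts make up most of each gene, the opposite values within a gene are nearly 1 observation. The ratio of Mpc1-208 to Mpc2-201, 1 transcript for each carrier subunit, was between 1.06 and 1.47 in the 9 other mice and between 1.13 and 1.27 in the MI prednisone mice. In the MI vehicle mice it was 1.30, 1.47 and 1.30, above all 3 treated MI values. An exact two-sided permutation test between the MI groups gave p = 0.1, the smallest that 3 against 3 allow (adjusted 0.117).

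**Figure D3:**
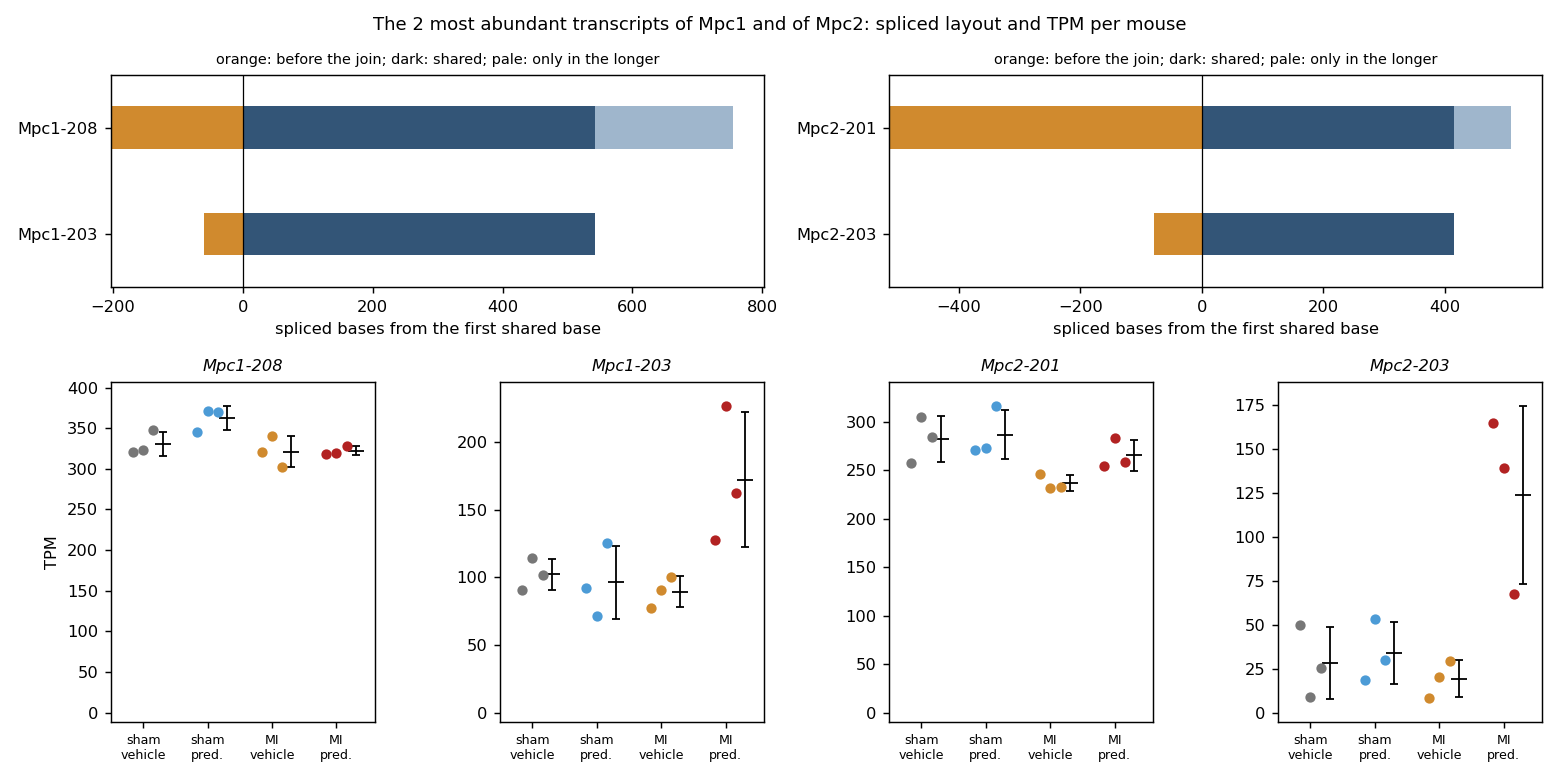
Upper panels draw the spliced layout of the 2 most abundant transcripts of Mpc1 and of Mpc2 in bases from the first shared base (orange before the join, dark shared, pale in the longer transcript only), and lower panels give the TPM of each transcript per mouse with the mean and SD of 3 mice. Mpc1-203 and Mpc2-203 are higher in the MI prednisone mice (mean 172 and 124 TPM) than in the other groups, while Mpc1-208 and Mpc2-201 stay between 302 and 371 TPM and between 232 and 316 TPM in all 12 mice.

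The subunits of the complex divided by gene. Pdha1 (chrX:160122209-160138413, minus strand), the X-linked E1 alpha subunit that carries the regulatory phosphorylation sites, was at 344, 358 and 371 TPM in the sham vehicle mice and 377, 379 and 402 TPM in the sham prednisone mice. Pdha1 in MI hearts was at 336, 334 and 313 TPM with vehicle and 225, 223 and 311 TPM with prednisone. MI prednisone mice 1 and 2 were below the other 10 mice, and mouse 3 lay just under the lowest MI vehicle value. Pdha1 fell, with a change of -0.39 (SE 0.12, adjusted p = 0.0278) against MI vehicle and -0.63 (SE 0.12, adjusted p = 0.00621) against sham prednisone, but it was 0.069 against MI vehicle after rescaling and 0.10 after the length correction. Without MI vehicle mouse 2, MI prednisone mouse 1 or MI prednisone mouse 2 the first of these changes was -0.37, -0.31 and -0.31 and no longer passed in limma (adjusted p = 0.0615, 0.106 and 0.0917).

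Pdhb (chr14:8165996-8173025, minus strand), the E1 beta subunit, did not move with its partner. It was at 339, 360.2 and 373 TPM in the sham vehicle mice and 361, 376 and 421 TPM in the sham prednisone mice. Pdhb in MI hearts was at 324, 333 and 322 TPM with vehicle and 299.9, 333 and 373 TPM with prednisone. The MI prednisone range spanned that of the MI vehicle mice, and the change was 0.033 (SE 0.10, adjusted p = 0.808) with a 95% interval of -0.19 to 0.25. After rescaling the Pdhb change was 0.49 and that of Pdha1 0.069, neither of them called, so which of the 2 moved depends on the scaling. The ratio of Pdha1 to Pdhb within a library was 0.749, 0.670 and 0.834 in the MI prednisone mice and between 0.954 and 1.05 in the other 9. A ratio within a library does not depend on its scaling, but the genes differ in length, with the Pdhb transcript at 1513 bases and Pdha1 at 2839 bases weighted by TPM. An exact two-sided permutation test of that ratio between the MI groups gave p = 0.1, which is the smallest p that 3 against 3 allow, and 0.117 after adjustment over 7 ratios.

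Dlat (chr9:50634633-50659780, minus strand), the lipoyl-bearing E2 core, was at 124, 137 and 132 TPM in the sham vehicle mice and 137, 147 and 150.4 TPM in the sham prednisone mice. Dlat in MI hearts was at 124, 128 and 124 TPM with vehicle and 94.0, 98.9 and 113 TPM with prednisone. All 3 treated MI mice were below the other 9. Dlat fell, with a change of -0.30 (SE 0.092, adjusted p = 0.0265) against MI vehicle and -0.50 (SE 0.092, adjusted p = 0.00498) against sham prednisone, and the first turned to 0.16 after rescaling and 0.16 after the length correction. That first call was also lost without MI vehicle mouse 2 (-0.28, adjusted p = 0.0644 in limma), MI prednisone mouse 1 (-0.24, 0.104) or MI prednisone mouse 2 (-0.28, 0.0688). Its 2 main transcripts kept a steady proportion: the 770-base Dlat-202, a processed transcript from the middle of the gene, made up between 40.3% and 48.5% of the sum in all 12 mice. Both Dlat-201 (-0.54) and Dlat-202 (-0.41) were called lower in MI than in sham hearts under prednisone. Neither passed against MI vehicle, where the changes were -0.31 (SE 0.12, adjusted p = 0.0606) and -0.28 (SE 0.099, adjusted p = 0.0512) in limma.

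Dld (chr12:31331277-31351453, minus strand), the E3 enzyme that this complex shares with the oxoglutarate and branched-chain complexes and the glycine cleavage system, was at 149, 148 and 151 TPM in the sham vehicle mice and 161, 159.7 and 165 TPM in the sham prednisone mice. Dld in MI hearts was at 141, 133 and 135 TPM with vehicle and 92.1, 83.9 and 112 TPM with prednisone. The treated MI mice were the lowest 3 of the 12 and the sham prednisone mice the highest 3. Dld fell, with a change of -0.51 (SE 0.10, adjusted p = 0.00404) against MI vehicle and -0.76 (SE 0.10, adjusted p = 0.00174) against sham prednisone, and the values after rescaling were -0.058 and -0.65. The coding Dld-201 was called lower as well, with a change of -0.46 (SE 0.11, adjusted p = 0.0100) against MI vehicle. Dld-202, a retained-intron transcript of 661 bases, was listed at 0 in all 3 MI prednisone mice, and at 8.27, 0.196 and 9.08 TPM in the MI vehicle mice, 18.5, 2.69 and 4.35 TPM in the sham vehicle mice and 18.5, 15.0 and 16.0 TPM in the sham prednisone mice. With 1 MI vehicle mouse at 0.196 TPM the transcript varied widely outside the treated MI group too.

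Pdhx (chr2:103021075-103073513, minus strand), the protein that holds E3 on the core, was at 53.6, 60.2 and 63.1 TPM in the sham vehicle mice and 57.2, 61.5 and 68.0 TPM in the sham prednisone mice. Pdhx in MI hearts was at 56.9, 67.9 and 51.7 TPM with vehicle and 33.8, 32.0 and 48.0 TPM with prednisone. The treated MI mice lay below the other 9. Its change was -0.63 (SE 0.16, adjusted p = 0.0108) against MI vehicle and -0.72 (SE 0.16, adjusted p = 0.0113) against sham prednisone, and -0.18 and -0.61 after rescaling, neither of which passed. The second call was lost in limma without sham prednisone mouse 3, MI prednisone mouse 1 or MI prednisone mouse 2 (adjusted p = 0.0518, 0.0560 and 0.0547). As listed, much of the drop lay in Pdhx-203, a 655-base transcript that ends before the last exons of the 2506-base Pdhx-201. The shorter transcript lies within the span of the longer, and any reads they share were assigned before deposit. Pdhx-203 was at 13.2, 20.0 and 16.9 TPM in the sham vehicle mice and 15.2, 17.4 and 18.8 TPM in the sham prednisone mice. Pdhx-203 in MI hearts was at 15.8, 21.3 and 10.1 TPM with vehicle and 0, 0 and 4.84 TPM with prednisone. It was listed at 0 in 2 treated MI mice and was between 10.1 and 21.3 TPM in the 9 mice of the other groups. Pdhx-201, the CCDS transcript, was at 33.7, 32.0 and 43.0 TPM in the MI prednisone mice against 41.0, 46.7 and 41.5 TPM in the MI vehicle mice, a change of -0.25 (SE 0.13, adjusted p = 0.160), and MI prednisone mouse 3 lay within the MI vehicle range. The fall called for the sum was not called for CCDS transcripts alone (-0.25, 95% interval -0.52 to 0.024).

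Pdk1 and Pdp1 had the 2 largest falls of the 10 genes with prednisone in MI hearts. Pdk1 (chr2:71873224-71903858, plus strand), a kinase that inactivates E1 and a known hypoxia-responsive gene, was at 33.8, 38.1 and 37.5 TPM in the sham vehicle mice and 38.0, 37.5 and 37.2 TPM in the sham prednisone mice. Pdk1 in MI hearts was at 34.1, 42.0 and 46.7 TPM with vehicle and 20.3, 18.2 and 26.7 TPM with prednisone. The treated MI mice lay below all other mice, and the MI vehicle mice held the highest 2 values. Pdk1 fell, with a change of -0.89 (SE 0.15, adjusted p = 0.00195) against MI vehicle and -0.78 (SE 0.15, adjusted p = 0.00585) against sham prednisone, and its call after rescaling held in the second (-0.68) but not in the first (-0.44, limma adjusted p = 0.0563). The coding Pdk1-201 changed by -0.56 (SE 0.13, adjusted p = 0.00997). Pdk1-208, a processed transcript, was at 2.82, 4.97 and 4.68 TPM in the MI vehicle mice and 0, 0 and 0.163 TPM in the MI prednisone mice. Pdk1-201 made up 99.4, 98.5 and 96.0% of the sum in the MI prednisone mice and 87.4, 82.5 and 64.2% in the MI vehicle mice. In MI vehicle mouse 3, at the lowest of these shares, Pdk1-206 (6.80 TPM) stood above Pdk1-208, and Pdk1-202 was at 3.33 TPM.

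Pdk2 (chr11:95026258-95041354, minus strand), the more abundant of these 2 kinases, was at 153, 165 and 169.9 TPM in the sham vehicle mice and 161, 164 and 188 TPM in the sham prednisone mice. Pdk2 in MI hearts was at 144, 142 and 133 TPM with vehicle and 123, 115 and 149.9 TPM with prednisone. Its MI groups overlapped, and prednisone changed it in MI by -0.13 (SE 0.11, adjusted p = 0.391), which did not pass and turned to 0.33 after rescaling. It was lower in MI than in sham hearts under prednisone, with a change of -0.41 (SE 0.11, adjusted p = 0.0302). That call ended after rescaling (-0.30) and when any 1 of 5 libraries was left out, namely the 3 sham prednisone mice and MI prednisone mice 1 and 2 (-0.45 to -0.33, limma adjusted p from 0.0571 to 0.121). The ratio of Pdk2 to Pdk1 was 5.61 to 6.31 in the MI prednisone mice and 2.85 to 5.06 in the other 9 (exact permutation test between the MI groups, two-sided p = 0.1, adjusted 0.117).

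Pdp1 (chr4:11958184-11966452, minus strand), the phosphatase subunit that reactivates E1, was the lowest of the 10 genes, at 15.6, 17.3 and 15.0 TPM in the sham vehicle mice and 16.0, 14.6 and 16.2 TPM in the sham prednisone mice. Pdp1 in MI hearts was at 15.1, 14.8 and 15.6 TPM with vehicle and 7.36, 6.77 and 9.82 TPM with prednisone. The treated MI mice were at or under 9.82 TPM and the other 9 at or above 14.6 TPM. Pdp1 fell, with a change of -0.86 (SE 0.13, adjusted p = 0.00145) against MI vehicle and -0.90 (SE 0.13, adjusted p = 0.00210) against sham prednisone, and after rescaling the values were -0.44, which did not pass, and -0.80, which did. As listed, 1 of its 6 transcripts carried most of the loss. Pdp1-201 was at 5.29, 6.63 and 5.82 TPM in the sham vehicle mice and 6.58, 5.38 and 6.15 TPM in the sham prednisone mice. Pdp1-201 in MI hearts was at 6.00, 4.87 and 7.32 TPM with vehicle and 0, 0.516 and 0.999 TPM with prednisone. It fell by 2.27 on the log2 scale against MI vehicle (SE 0.24, limma adjusted p = 1.57e-04), while Pdp1-206 stayed at 2.95, 2.36 and 4.93 TPM beside 4.48, 2.65 and 3.39 TPM. Pdp1-201 has 1881 bases, begins and ends inside the 4201-base Pdp1-203, and is listed at 0 in 1 treated MI mouse. Any reads that the Pdp1 transcripts share were assigned before deposit. The listed split also varied within a group, with Pdp1-204 at 4.96, 3.10 and 1.35 TPM in the sham prednisone mice. The ratio of the summed kinases Pdk1 and Pdk2 to Pdp1 was 18.0 to 19.6 in the MI prednisone mice and 11.6 to 13.9 in the other 9 (exact permutation test between the MI groups, two-sided p = 0.1, adjusted 0.117).

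**Figure D4:**
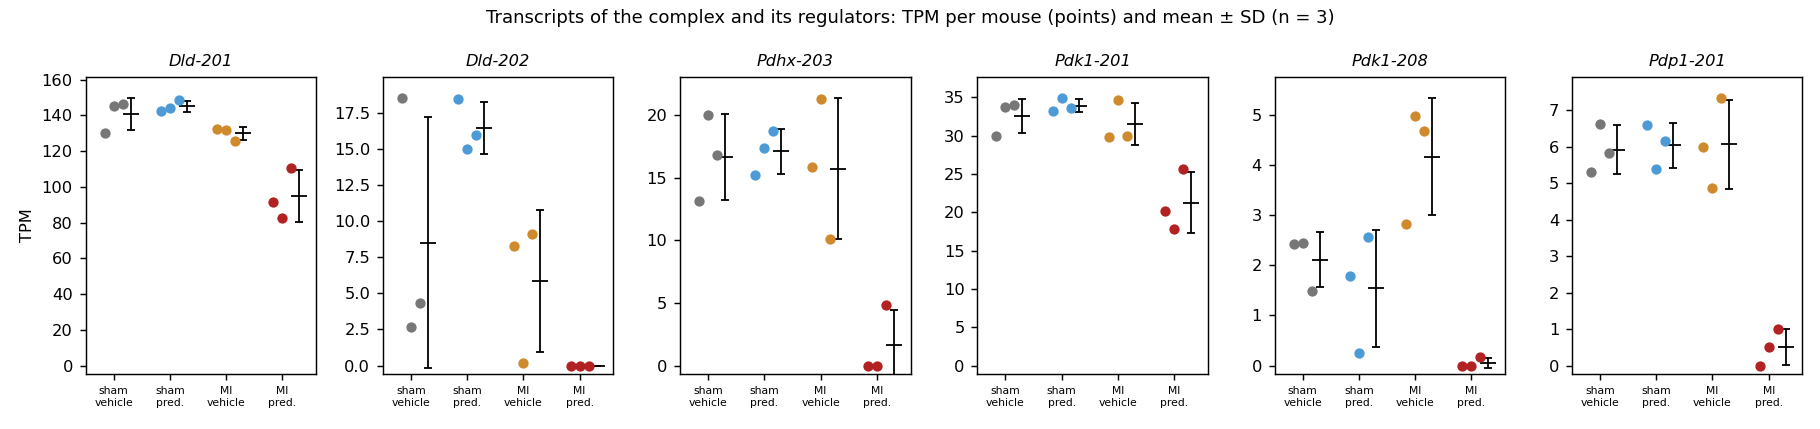
TPM of 6 transcripts of Pdhx, Dld, Pdp1 and Pdk1 per mouse (points) in the 4 groups, with the mean and SD of 3 mice and each panel on its own axis; the SD bars that reach under 0 come from groups with values near 0. Dld-202 is listed at 0 in all 3 MI prednisone mice, Pdhx-203 in 2, Pdk1-208 in 2 and Pdp1-201 in 1.

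Across the member transcripts, 32 of the 50 passed the filter of 1 TPM in 3 libraries. With prednisone in MI hearts 9 of the 32 were called, Mpc1-203 and Mpc2-203 higher and 7 lower (Pdha1-201, Dld-201, Dld-202, Pdhx-203, Pdk1-201, Pdk1-208 and Pdp1-201), against 33.0% of all transcripts tested, 5.92% higher and 27.1% lower. MI against sham under prednisone called 11 of the 32, with Mpc1-203 higher and 10 lower, where the background was 22.3%, 6.75% higher and 15.6% lower. MI against sham under vehicle called 0 of 32 in limma (2 at an unadjusted p under 0.05, background 2.84%), and prednisone in sham hearts called 0 (0 at an unadjusted p under 0.05, background 0.0540%). The difference of the prednisone effects was called for 7 of the 32, Mpc1-203 above 0 and 6 below it, against 18.7% of transcripts, 2.87% above and 15.8% below. That count was 2 after rescaling, 1 of 50 without the filter and 2 to 8 when 1 library was left out. Of all transcripts, 3489 of 27769 were called after rescaling and 2784 of 84049 without the filter. The member count was 2 or 3 without sham vehicle mouse 1 or 3, any sham prednisone mouse, MI vehicle mouse 2, or MI prednisone mouse 1 or 2. Those fits called 2825 to 4416 of all 27769 transcripts, beside 5185 with all libraries. Tested against the rest of its gene, a transcript was called for 10 of 31 with prednisone in MI, 5 in each direction, where 27.2% of transcripts were called, 14.3% higher and 13.0% lower. The 10 were 1 higher and 1 lower in each of Mpc1, Mpc2, Pdhx, Pdk1 and Pdp1. A rise of 1 transcript lowers the others in this measure, so the even split is largely built in. The same test called 9 of 31 between MI and sham under prednisone (background 28.1%), 0 under vehicle (1 at an unadjusted p under 0.05, background 0.0411%), 0 with prednisone in sham hearts (0 unadjusted, background 0.00457%) and 4 for the difference of effects (background 15.4%). Leaving out 1 library moved these counts against the rest of the gene to 6 to 9 of 31 for prednisone in MI, 4 to 9 for MI against sham under prednisone and 1 to 6 for the difference of effects. The first was 6 without MI vehicle mouse 1 or MI prednisone mouse 2, the second 4 without sham prednisone mouse 1, and the third 1 or 2 without MI prednisone mouse 2 or 1. Over all transcripts these fits called 4764 and 3992, 4673, and 2288 and 2295 of 21893, in the same order. MI against sham under prednisone also called 6 of the 32 transcripts after rescaling, beside 7323 of all 27769. The share of member transcripts that moved within their genes was near that of all transcripts.

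In sham vehicle hearts the level of the 10 genes, in TPM and so per length, ran in the order Mpc1 (449.9 ± 20.2 TPM, SD, n = 3), Pdha1 (358 ± 13.7 TPM), Pdhb (357 ± 16.9 TPM), Mpc2 (312 ± 3.09 TPM), Pdk2 (163 ± 8.40 TPM), Dld (149 ± 1.49 TPM), Dlat (131 ± 6.21 TPM), Pdhx (59.0 ± 4.91 TPM), Pdk1 (36.5 ± 2.36 TPM) and Pdp1 (16.0 ± 1.20 TPM). Of these neighbours Pdha1 and Pdhb overlapped, and the others did not. In MI prednisone hearts Mpc2 stood at 391 ± 54.3 TPM, above Pdhb at 335 ± 36.6 TPM and Pdha1 at 253 ± 50.4 TPM, with the ranges of Mpc2 and Pdhb overlapping.

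The changes with prednisone in MI hearts also ran with transcript length. Over 11901 genes with an annotated length, the median change was -0.052 for the 1755 genes under 1000 bases, -0.25 from 1000 to 2000 bases, -0.47 from 2000 to 4000 bases, -0.67 from 4000 to 8000 bases and -0.69 for the 175 genes of 8000 bases and over. Mpc1 and Mpc2, at 862 and 947 bases, are the short members, and their changes were 0.31 and 0.64 above the median of genes of like length. The 6 members between 2000 and 4000 bases lay on both sides of that median, from Pdp1 with a difference of -0.39 to Pdk2 with one of 0.35, and Pdk1 at 4746 bases differed by -0.22 from the median of its range. Pdhb had no length by its versioned identifier. Across the other 9 genes, Spearman's rho between length and change was -0.72, and across all genes it was -0.38, both given as descriptions over genes that share the same 6 libraries. After the length correction the comparison called Mpc2 alone, and 3 members, Dld (-0.68), Pdk1 (-0.43) and Pdp1 (-0.81), were still called lower between MI and sham under prednisone. Of the 11901 genes, 1046 were then called higher with prednisone in MI and 951 lower between MI and sham under prednisone.

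**Figure D5:**
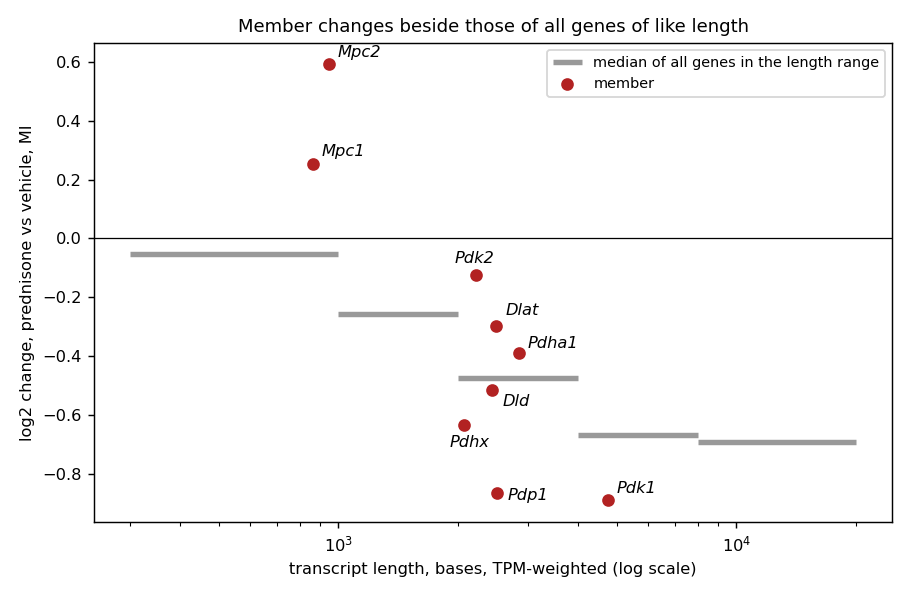
Log2 change with prednisone in MI hearts (y axis) of the 9 member genes that have an annotated length (red points), against transcript length in bases weighted by TPM on a log axis, with grey bars for the median of all genes in 5 length ranges (the outer bars stand for the open ranges under 1000 and from 8000 bases). The grey medians fall from -0.052 to -0.69 with length, Mpc1 and Mpc2 lie above the bar of their range, and Pdk1 and Pdp1 lie below theirs.

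The other genes that set the phosphorylation of the complex were measured beside the members. Of these 4, 3 were called lower with prednisone in MI and none higher, where 34.9% of all genes were called lower and 2.50% higher. Pdpr, the regulatory subunit of the phosphatase, was at 20.6, 26.7 and 25.0 TPM in the sham vehicle mice and 26.4, 24.5 and 22.7 TPM in the sham prednisone mice. Pdpr in MI hearts was at 23.2, 19.8 and 19.1 TPM with vehicle and 2.76, 2.40 and 8.04 TPM with prednisone. The treated MI mice were the lowest 3 of the 12, a change of -2.15 (SE 0.29, adjusted p = 9.84e-04) against MI vehicle, and its difference of effects was called too, at -2.18 (SE 0.42, adjusted p = 0.00965). Pdp2, the second catalytic phosphatase subunit, was at 3.46, 3.27 and 4.39 TPM in MI vehicle and 1.62, 1.65 and 2.07 TPM in MI prednisone mice, a change of -0.75 (SE 0.15, adjusted p = 0.00359). Pdk4, the kinase induced by fasting, fatty acids and glucocorticoids, varied widely, at 195, 169.6 and 89.6 TPM in the sham vehicle mice and 246, 123 and 99.8 TPM in the sham prednisone mice. Pdk4 in MI hearts was at 90.2, 194 and 127 TPM with vehicle and 61.1, 45.5 and 77.6 TPM with prednisone. Its change was -1.11 (SE 0.39, adjusted p = 0.0455). After rescaling the calls of Pdpr (-1.73) and Pdp2 (-0.42) held and that of Pdk4 (-0.65) ended, where 14.2% of all genes were called lower. Pdk3, at 0.897 to 6.49 TPM in all 12 mice, was not called in any of the 5 contrasts.

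Further lists around the complex gave mixed directions with prednisone in MI hearts. Of the 52 genes tested in 5 lists 23 were called (44.2%), 6 higher and 17 lower, beside 37.4% of all genes, 2.50% higher and 34.9% lower. Of 8 genes of the sister complexes, which use the same E3, 2 rose (Bckdhb, 0.52, the larger) and 2 fell (Ogdh -0.47 and Dbt -0.67), and the list median was -0.066. Of 14 tested lipoylation and iron-sulfur genes of 15 listed, which make the lipoyl cofactor of Dlat, 3 rose (Glrx5, 0.51, the largest) and 2 fell (Oxsm -0.92 and Iba57 -0.48), with a median of -0.088. Of 3 tested genes of thiamine supply, the E1 cofactor, Slc19a2 fell (-0.48). Of 14 genes that supply or use pyruvate, Ldhb rose (0.46) and Me2 (-1.28) and Acss1 (-0.49) fell, with a median of -0.31. Of 13 transcriptional regulators known to act on the kinase genes, 10 fell, among them Klf9 (-1.82), Ppara (-1.53) and Hif1a (-1.38), with a median of -0.95. The median of all genes was -0.41. After rescaling no called gene of these lists changed direction, and the calls of Ogdh (-0.015), Dbt (-0.24), Iba57 (-0.094), Slc19a2 (-0.15), Acss1 (-0.036) and 3 of the 10 regulators ended. The rescaled calls were 11 higher and 9 lower of 52, where 14.6% of all genes were called higher and 14.2% lower. By list they were 3 higher and 0 lower for the sister complexes, 5 and 1 for lipoylation, 2 and 1 for pyruvate, and 1 and 7 for the regulators.

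The same lists were also compared between MI and sham hearts under vehicle, where 7 of the 52 genes were called (13.5%, beside 16.0% of all genes). They were Bckdhb (-0.51), Ldhb (-0.33) and Me3 (-0.33) lower and Slc19a2 (0.55), Slc16a3 (1.09), Me2 (1.03) and Hif1a (0.73) higher. After rescaling those 4 rises were not called (0.23, 0.78, 0.64 and 0.31), and 9 genes were called lower, these 3 and 6 others, where 3.72% of all genes were called lower. Slc16a3 encodes a lactate and pyruvate exporter of the cell membrane and Hif1a the oxygen-sensitive subunit of the hypoxia-inducible factor. In MI vehicle mouse 3, Me2 was at 17.9 TPM, against 5.60 and 7.03 TPM in the other 2 MI vehicle mice.

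By Pearson correlation of log2(TPM + 1) over the 12 libraries, the genes most like each member among 8106 candidates are named with no p because all share the libraries and the group differences. The nearest were Coq7 and Ndufa12 for Mpc1 (both r = 0.92), Cox7a2 and Uqcrh for Mpc2 (0.99 and 0.98), Mdh1 and Ogdh for Pdha1 (0.998 and 0.996), and Vdac3 and Clybl for Pdhb (0.94 and 0.93). They were Rhot2 and Gfm1 for Dlat (both 0.99), Hdac9 and Tbc1d16 for Dld (both 0.99), Trp53inp2 and Klhdc2 for Pdhx (0.99 and 0.98), Plekhb2 and Ablim1 for Pdk1 (both 0.99), Coq9 and Prdx3 for Pdk2 (0.98 and 0.97), and Gm10698 and Gpam for Pdp1 (both 0.99). No nearest gene was shared between members. Between Pdha1 and Pdhb, the subunits of 1 enzyme, r was 0.71.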

How the data were processed

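The expression of mouse myocardium from 12 mice in 4 groups of 3 was read from 1 table of TPM per transcript that the authors deposited. Per the submitters' processing notes the genome was mm10 and Trimmomatic, HISAT2 and kallisto were used, and per the labels' protocols total RNA went into a stranded mRNA library. TPM values keep no read depth, so the depth behind a value is unknown and the number of mice limits the precision.

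Transcripts were summed by gene symbol, and 94.73% of rows, with 49 of the 50 member transcripts, matched GENCODE M21 (GRCm38) by versioned identifier. Genes, transcripts and transcript usage, log2((transcript + 1) / (rest of gene + 1)), were each tested in limma 3.58.1 (R 4.3.3) across all 12 libraries with 1 mean per group, a pseudocount of 1, and a filter of 1 TPM in 3 libraries; calls were made at a Benjamini-Hochberg adjusted p under 0.05 over all features. The code was tested on simulated data. Alternatives changed the scaling, pseudocount, filter, trend, block, length and transcripts used. The CCDS alternative was chosen after seeing the data. The 10 genes, the lists around them and the marker lists were chosen with earlier results of these data known. Named were all 10 genes, their transcripts with a mean of 5 TPM or any call, the other 4 regulators, up to 3 called genes per further list, and the 2 genes most like each member; transcripts and ratios outside this, such as Pdp1-206, were chosen after their values were seen. Replicates are separate mice by their numbers in the labels, and p-values measure the spread between those libraries.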

Additional observations from a re-analysis of the deposited data

Results flagged for a closer look

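The prednisone effect in MI hearts differed from that in sham hearts, by the interaction term in limma, for 6 of the 10 genes, beside 21.3% of all genes, 20.7% below 0. The differences, MI minus sham on the log2 scale, were 0.55 for Mpc2, -0.44 for Dlat, -0.63 for Dld, -0.71 for Pdhx, -0.93 for Pdk1 and -0.83 for Pdp1. In the sham groups none of the 10 genes was called. After median-ratio rescaling Mpc2 alone passed and Dlat turned to 0.11, the length correction left 0 calls, and 3 were left in 8 of the 12 fits that omit 1 library. Of all genes, 1323 of 13158 passed after rescaling, 243 of 11901 after the length correction and 1111 to 2555 of 13158 in those 8 fits.

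Among the transcripts the difference passed for 7 of 32, beside 18.7% of all transcripts, and for 2 after rescaling, 1 of 50 without the filter and 2 to 8 with 1 library left out. Over all transcripts it passed for 3489 of 27769 after rescaling and 2784 of 84049 without the filter. The 7 were Mpc1-203 (1.02), Dld-201 (-0.51), Dld-202 (-3.53), Pdhx-203 (-3.21), Pdk1-201 (-0.62), Pdk1-208 (-1.86) and Pdp1-201 (-2.30). For Dld-202, listed at 0 in all 3 MI prednisone mice, the fitted value depends on the pseudocount and is no bound. Measured against the rest of its gene, the difference passed for Pdhx-201 (2.84), Pdhx-203 (-2.87), Pdk1-201 (1.98) and Pdp1-201 (-2.11). Pdhx-201 and Pdhx-203 are the 2 transcripts of Pdhx that passed the filter, so their opposite values are 1 observation.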

How the results depend on the processing

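Counts of called genes of the 10 depended most on the scaling and the length correction. Median-ratio rescaling gave 1 call for MI against sham under vehicle, 3 under prednisone, 2 for prednisone in MI and 1 for the difference of effects, and 6 and 2 of the 32 transcripts for MI against sham under prednisone and for the difference of effects. Over all features it called 979, 3417, 3787 and 1323 of 13158 genes, and 7323 and 3489 of 27769 transcripts. The length correction, over 9 genes, gave 1, 3, 1 and 0 in the same order, beside 633, 1537, 1961 and 243 of all 11901 genes. Removing mitochondrial, nuclear-copy and globin rows and restoring the total gave 1 for MI against sham under vehicle, 3 for prednisone in MI and 2 for the difference of effects. Beside these, 1535, 5672 and 2732 of all 14690 genes were called. Fitting the 2 MI groups alone gave 2 calls for prednisone in MI, beside 808 of all 13158 genes. The difference of effects had 3 calls without the trend and 3 with the most abundant transcript of each gene, 1 transcript called of 50 without the filter, and 2 transcripts called against the rest of their gene with the pseudocount of 0.1. Over all features, in the same order, the calls were 2781 of 13158 and 2781 of 12422 genes, 2784 of 84049 transcripts, and 2845 of 21893. Without the filter 15 of 49 were called against the rest of their gene for MI against sham under prednisone, beside 9486 of all 74191.

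Some changes turned sign, and none of those was called after turning. With rescaling the values became Pdk1 -0.28 for MI against sham under vehicle, Pdha1 0.069, Dlat 0.16 and Pdk2 0.33 for prednisone in MI, Mpc1 -0.022, Mpc2 -0.048, Pdhx -0.012, Pdk1 -0.043 and Pdk2 -0.019 for prednisone in sham, Pdha1 0.048, Pdhb 0.47, Dlat 0.11 and Pdk2 0.35 for the difference of effects. With mitochondrial, nuclear-copy and globin rows removed they became Pdk1 -0.083 for MI against sham under vehicle, Mpc1 -0.0082, Mpc2 -0.035, Pdk1 -0.030 and Pdk2 -0.0053 for prednisone in sham, Pdhb 0.082 for the difference of effects. With the length correction they became Pdk1 -0.25 for MI against sham under vehicle, Mpc1 -0.14 for MI against sham under prednisone, Pdha1 0.10, Dlat 0.16 and Pdk2 0.30 for prednisone in MI, Pdk1 -0.062 for prednisone in sham, Pdha1 0.067, Dlat 0.084 and Pdk2 0.29 for the difference of effects. With the most abundant transcript they became Pdhx 0.028, Pdk1 -0.048 and Pdp1 0.021 for MI against sham under vehicle, Mpc1 -0.17 and Mpc2 -0.11 for MI against sham under prednisone, Pdp1 0.026 for prednisone in sham, Mpc1 -0.13 for the difference of effects. With CCDS transcripts they became Pdhx 0.028 and Pdk1 -0.048 for MI against sham under vehicle, Mpc1 -0.17 and Mpc2 -0.11 for MI against sham under prednisone, Mpc1 -0.13 for the difference of effects. The cause was not tested.

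Leaving out 1 library at a time gave 5 to 7 called genes for prednisone in MI, 5 to 8 for MI against sham under prednisone and 3 to 7 for the difference of effects, where leaving out any sham vehicle mouse, sham prednisone mouse 1 or 2, MI vehicle mouse 2 or MI prednisone mouse 1 or 2 gave 3. Over all genes these fits called 3245 to 6274, 1027 to 2630 and 1111 to 4520 of 13158, in the same order. Called member transcripts ranged from 7 to 12, 8 to 13 and 2 to 8, and those called against the rest of their gene from 6 to 9, 4 to 9 and 1 to 6. The changes that turned sign were small: Pdk1 in sham (-0.0079 to 0.077), Pdp1 in sham (-0.075 to 0.022), Mpc2 in sham (-0.014 to 0.11), Pdhx for MI against sham under vehicle (-0.12 to 0.078), and Pdhb for prednisone in MI (-0.047 to 0.11) and for the difference of effects (-0.16 to 0.0014).

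The mice carry the same numbers 1 to 3 in each group, yet same-numbered mice did not deviate together (mean correlation -0.37 for MI against sham under vehicle, -0.050 under prednisone, -0.25 for prednisone in MI and 0.0028 in sham). With a replicate block there were 7 called genes for prednisone in MI and 7 for MI against sham under prednisone, and 4 genes and 4 transcripts for the difference of effects. Over all features the calls were 4434, 1901 and 2352 of 13158 genes, and 4525 of 27769 transcripts. The length correction with the replicate block gave 1, 1 and 0 genes for MI against sham under prednisone, prednisone in MI and the difference of effects, with the same values that turned sign as without the block. Beside these, 943, 1374 and 109 of all 11901 genes were called.

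TPM keeps no depth, so transcripts near 0 cannot be given a detection limit. Reads that transcripts of the same gene share, as in the pairs of Mpc1 and of Mpc2, were assigned before deposit.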
